A study of Homo sapiens and Mus musculus with 20 samples.

Results

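Hypoxia-inducible target genes are genes that cells switch on when oxygen is scarce. The set described here was chosen by symbol and held 10 genes, VEGFA, ADM, ANKRD37, BNIP3, BNIP3L, EGLN3, P4HA1, NDRG1, KDM3A and CA12. Of these, 9 had values in all 3 gene lists of IMR90 cells, which together held 17554 genes, and all 9 were tested in each comparison. EGLN3, a prolyl hydroxylase that marks HIF proteins for breakdown, had no row in these lists and was not analysed here. Gene expression had been measured by bulk RNA sequencing in IMR90 cells, a wild type human fetal lung fibroblast line. The 12 libraries formed 6 groups of 2, namely A485 with Control2, MS-275 with Control3 and pyruvate with Control6, and the labels list the treatment of each control as none. A485 inhibits the acetyltransferase p300, MS-275 inhibits class I histone deacetylases, and pyruvate was given to senescent cells according to the study. The study asked how gene expression follows when enzymes that write or remove histone lactylation are inhibited, or when pyruvate is supplied.

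In cells with enough oxygen, prolyl hydroxylases modify HIF-alpha proteins, and VHL then directs them to degradation. When oxygen falls, HIF-1-alpha or HIF-2-alpha (encoded by EPAS1) pairs with ARNT, binds the hypoxia response element in DNA, and recruits the coactivators p300 and CBP. Its targets serve blood vessel growth (VEGFA, ADM), mitophagy (BNIP3, BNIP3L), collagen maturation (P4HA1), pH balance (CA12) and histone demethylation (KDM3A). Signals other than oxygen, such as growth factors, act on several of these genes as well.

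The core of the hypoxia response element is ACGTG or GCGTG. These letters were searched on both strands of the 250 bases before a RefSeq transcript start, in promoter windows of GRCh38.p14. Such windows matched 7 of the 10 genes (8 windows, since KDM3A had 2). The KDM3A, ANKRD37 and EGLN3 windows lay wholly within the annotated gene, past its outermost start. A match was present in 7 of the 8 windows. The 2 KDM3A windows overlap and share the same match, so that 6 of the 7 genes had one. Over all 35114 windows of this length 43.2% held at least 1 match, 18.5% held ACGTG and 32.2% GCGTG. BNIP3 had 6 matches and ANKRD37 had 3, counting a CACGTG once on each strand, whereas P4HA1, ADM, CA12 and each KDM3A window had 1 and EGLN3 had 0. The windows shown belong to the members with a window that passed the test in at least 1 comparison below, with the first KDM3A window. They are written 5′ to 3′ along the gene, and capitals mark a match to either motif on either strand.
ADM (chr11:10304823-10305072, plus strand): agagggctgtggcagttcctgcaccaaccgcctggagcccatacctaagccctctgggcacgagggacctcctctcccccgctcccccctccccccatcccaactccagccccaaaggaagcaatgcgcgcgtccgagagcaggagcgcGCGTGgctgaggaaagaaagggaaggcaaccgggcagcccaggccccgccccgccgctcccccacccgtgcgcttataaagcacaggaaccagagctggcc
CA12 (chr15:63381847-63382096, minus strand): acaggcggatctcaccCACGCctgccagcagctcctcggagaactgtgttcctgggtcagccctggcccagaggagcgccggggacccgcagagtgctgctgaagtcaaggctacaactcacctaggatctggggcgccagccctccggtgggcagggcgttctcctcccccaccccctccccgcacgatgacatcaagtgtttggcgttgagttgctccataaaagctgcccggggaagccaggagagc
P4HA1 (chr10:73096867-73097116, minus strand): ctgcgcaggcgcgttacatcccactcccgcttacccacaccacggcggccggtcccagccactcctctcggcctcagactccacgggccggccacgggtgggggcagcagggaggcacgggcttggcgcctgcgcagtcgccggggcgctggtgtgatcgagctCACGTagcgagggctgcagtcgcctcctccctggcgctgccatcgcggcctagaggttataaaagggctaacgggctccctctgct
KDM3A (chr2:86441121-86441370, plus strand): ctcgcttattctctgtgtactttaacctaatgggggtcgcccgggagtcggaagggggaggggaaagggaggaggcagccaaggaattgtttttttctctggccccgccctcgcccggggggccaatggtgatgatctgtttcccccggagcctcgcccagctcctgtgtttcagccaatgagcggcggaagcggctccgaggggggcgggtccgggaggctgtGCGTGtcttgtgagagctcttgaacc
The single match lay 101 bases before the RefSeq start of the window in ADM, 234 in CA12, 86 in P4HA1 and 26 in KDM3A. The match was ACGTG in P4HA1 and GCGTG in the other three, and these letters are a description of the window and no evidence of binding.

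Values are normalized read counts, in which the reads of a gene were scaled by the size factor of the library, and each experiment was normalized on its own. Calling a gene required both an adjusted p below 0.05 and a log2 fold change beyond 1 in either direction (limma on log2(value + 1), Benjamini-Hochberg adjustment over all genes tested, n = 2 libraries per group). Read totals ran from 24179065 to 46971227 per library. All 10 fibroblast markers were listed in every library and made up 1.35 to 3.64% of the summed values. The 2 A485 libraries stood at 1.35 and 1.49% against 3.30 and 3.48% in Control2. The MS-275 libraries stood at 2.697 and 1.525% against 3.319 and 2.114% in Control3, and pyruvate at 3.632 and 3.643% against 3.533 and 3.467% in Control6. EPCAM was the only one of 6 epithelial markers listed, with 208 and 177 after A485 against 64.2 and 47.7 in Control2, at most 17.8 in the MS-275 experiment and no row in the pyruvate experiment. The part of these marker differences in the A485 and MS-275 results was not tested. Sums of the epithelial, endothelial and leukocyte markers stayed at or below 0.000626% of values in every library. No label says that replicates came from separate cultures, so p-values measure the spread between these libraries. Fewer cells of a type and less RNA per cell cannot be told apart in bulk samples.

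**Figure D1:**
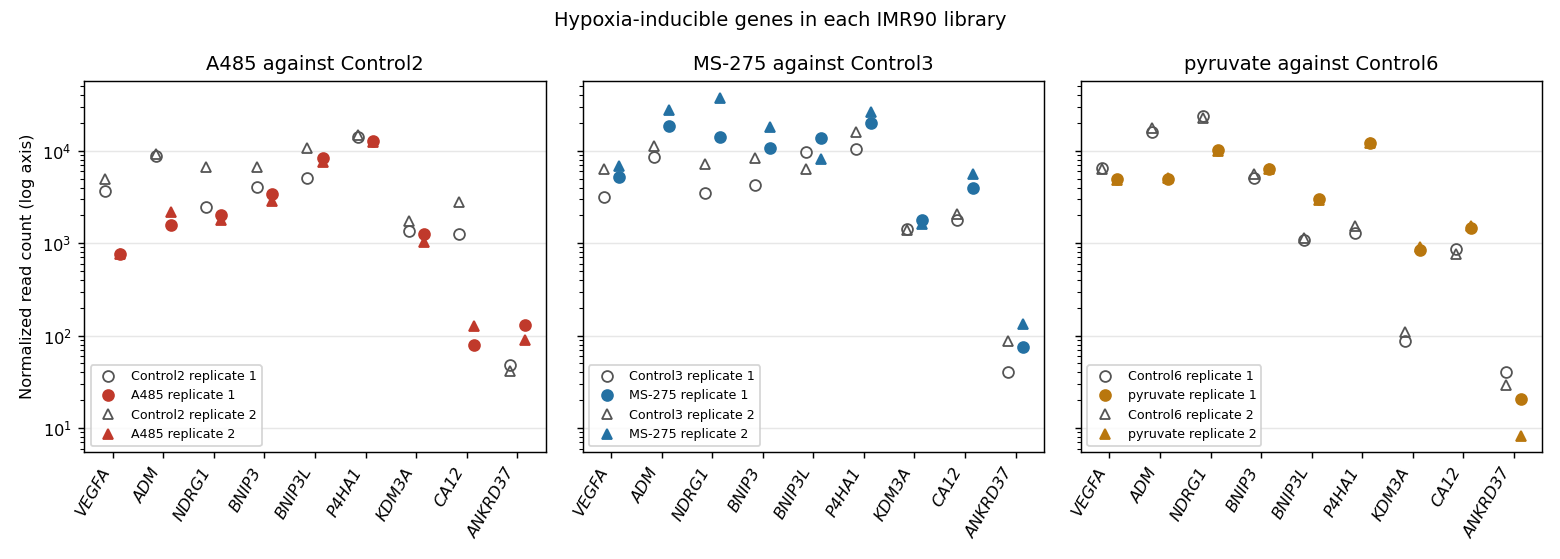
Normalized read count (log axis) of the 9 listed members in each library of the 3 experiments, with open symbols for control, filled symbols for treated libraries, circles for replicate 1 and triangles for replicate 2. VEGFA, ADM and CA12 lie lower in both A485 libraries, while P4HA1 and KDM3A lie higher in both pyruvate libraries than in Control6.

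The levels of the members differed widely within each control group. Per kilobase of the canonical transcript, the order of mean levels in Control2 was ADM (6037), P4HA1 (5250), BNIP3 (3485), BNIP3L (2292), NDRG1 (1524), VEGFA (1200), KDM3A (334), CA12 (333) and ANKRD37 (57.3). Values of neighbours such as BNIP3, BNIP3L and NDRG1 overlapped between the Control2 libraries, and BNIP3L ranged from 1479 to 3105. The order in Control3 was the same apart from KDM3A and CA12. In Control6 it was different, with ADM (11176), NDRG1 (7629) and BNIP3 (3443) first and KDM3A last (21.0), and P4HA1 stood at 512. Levels across the experiments cannot be compared directly because the tables were normalized separately.

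After A485, 3 of the 9 members were called lower. VEGFA fell 5.66-fold, ADM 4.89-fold and CA12 18.7-fold, while 0 members were called higher by limma, edgeR or DESeq2. ANKRD37 was the one member with a higher value and an unadjusted p under 0.05. Called genes made up 10.4% of the 16084 genes tested (3.31% higher and 7.06% lower). The median log2 fold change of the members was -0.74, against 0.0088 over all genes tested.

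VEGFA encodes vascular endothelial growth factor A, the main growth signal for blood vessels (chr6:43770184-43786487, plus strand, hg38). Its value was 757 and 755 in the A485 libraries and 3677 and 4988 in Control2. Both treated libraries lay far below both controls, and the log2 fold change was -2.50 (SE 0.21, limma adjusted p = 0.0026). ADM encodes adrenomedullin, a peptide that relaxes blood vessels (chr11:10305073-10307397, plus strand). Its value was 1558 and 2172 after A485 and 8743 and 9273 in Control2. The groups were again apart, with a log2 fold change of -2.29 (SE 0.21, limma adjusted p = 0.00325).

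CA12 encodes a carbonic anhydrase of the cell surface (chr15:63321378-63381846, minus strand) and changed most among the members. Its value was 79.2 and 126 after A485 and 1261 and 2799 in Control2. The control libraries differed by more than the treated ones on the linear scale, yet the groups did not come near each other. The log2 fold change was -4.22 (SE 0.45, limma adjusted p = 0.00488), and without A485 replicate 1 the adjusted p was 0.0649.

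The mitophagy receptors did not pass the test after A485. BNIP3 had 3409 and 2856 against 4061 and 6688, and the treated libraries lay below both controls (log2 fold change -0.74, 95% interval -1.39 to -0.086, limma adjusted p = 0.126). BNIP3L, its close relative, had 8251 and 7633, inside the range of its controls at 5106 and 10717. NDRG1, a stress-responsive gene linked to differentiation, had 2036 and 1762 against 2476 and 6743 (log2 fold change -1.11, SE 0.45, limma adjusted p = 0.158). Control2 replicate 2 was the high library for both BNIP3L and NDRG1. Without Control2 replicate 1, BNIP3 and NDRG1 also passed, so that 5 members were called lower. Without Control2 replicate 2, BNIP3 stood at -0.38 (limma adjusted p = 0.324) and NDRG1 at -0.39 (0.314).

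P4HA1 encodes the catalytic subunit of collagen prolyl 4-hydroxylase and had 12745 and 12314 after A485 against 14031 and 14772. The difference of -0.20 on the log2 scale had a 95% interval of -0.60 to 0.20. KDM3A, a demethylase of histone H3 lysine 9, had 1251 and 1031 against 1364 and 1758, a difference of -0.45 (95% interval -0.98 to 0.083). ANKRD37, a small ankyrin repeat protein, went the other way with 131 and 90.0 against 48.2 and 41.6. Both A485 libraries lay above both controls, but the log2 fold change of 1.26 had an adjusted p of 0.115 (limma). ANKRD37 overlaps the exons of UFSP2 on the opposite strand, and the strand setting of the count is not given in the sources used here. In all, 7 members lay lower and 1 higher in both treated libraries than in both controls, where 30.7% and 30.4% of all genes did so.

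**Figure D2:**
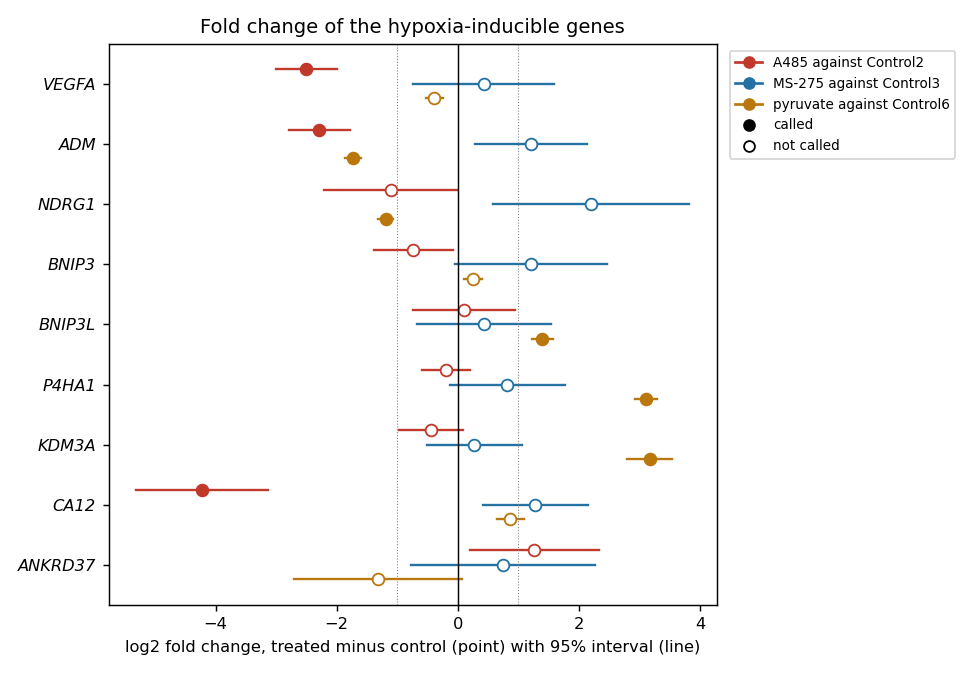
log2 fold change (treated minus control) of each member in the 3 comparisons, with points for the limma estimate and lines for its 95% interval, filled where the gene was called. A485 points for VEGFA, ADM and CA12 lie at -2.50, -2.29 and -4.22, all 9 MS-275 points lie to the right of 0 with wide intervals, and the pyruvate points spread from -1.73 to 3.16.

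After MS-275 no member passed the test in the fit without a replicate block. In that fit limma called 0 of 15883 genes (0%), and 1730 genes (10.9%) had an unadjusted p under 0.05. Of the members, 3 had an unadjusted p under 0.05, namely ADM, NDRG1 and CA12. Same-numbered libraries deviated from their group means alike, with a correlation of 0.728 across genes. Within each replicate number, the MS-275 library was above its Control3 library for all 9 members, as it was in both numbers for 38.6% of all genes. The difference exceeded 1 on the log2 scale in both numbers for 4 of 9 members and for 6.81% of all genes. These within-number differences are a description, since no label says what the number stands for. With the replicate number as a block, limma called 4 of 9 members higher (ADM, BNIP3, NDRG1 and CA12). That fit called 2183 of the 15883 genes in either direction, 1230 of them higher.

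NDRG1 had the widest difference. Its value was 14092 and 37242 after MS-275 against 3507 and 7102 in Control3, so both treated libraries lay above both controls. The difference was 2.01 on the log2 scale in number 1 and 2.39 in number 2, and the fitted 4.59-fold difference had an adjusted p of 0.33 (limma). Without Control3 replicate 2 it was 2.71 and passed, with an adjusted p of 0.0124.

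CA12 had 3960 and 5532 after MS-275 against 1802 and 2064, with differences of 1.14 and 1.42. ADM had 18475 and 27410 against 8499 and 11191, with differences of 1.12 and 1.29. Both were apart from their controls, and both had been lower after A485. BNIP3 had 10743 and 17826 against 4284 and 8395, with differences of 1.33 and 1.09. The limma adjusted p was 0.303 for CA12, 0.348 for ADM and 0.481 for BNIP3.

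P4HA1 had 19852 and 26003 against 10408 and 15975, with differences of 0.93 and 0.70, and KDM3A had 1803 and 1596 against 1412 and 1401, with 0.35 and 0.19. Both genes were above both controls in both libraries. VEGFA overlapped its controls, with 5228 and 6897 against 3159 and 6312 and differences of 0.73 and 0.13. BNIP3L had 13735 and 8050 against 9729 and 6280 and overlapped as well, with the replicate-1 libraries high in both groups. ANKRD37 had 75.5 and 134 against 40.6 and 86.9, with differences of 0.88 and 0.61. In sum, 6 members had both MS-275 libraries above both controls, against 19.5% of all genes, and the median log2 fold change was 0.82 against -0.0084 over all genes.

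**Figure D3:**
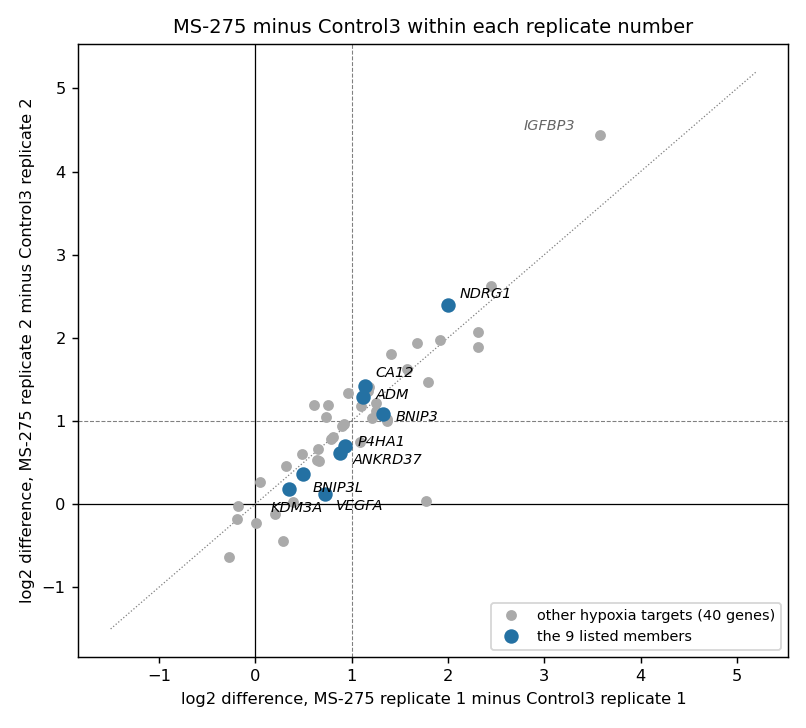
log2 difference between MS-275 and Control3 in replicate number 1 (horizontal) and number 2 (vertical) for the 9 listed members (blue) and 40 other hypoxia targets (grey), with a dotted line of equality and dashed lines at 1. All 9 members lie above 0 on both axes and NDRG1 lies highest among them, at 2.01 and 2.39.

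After pyruvate, members moved in both directions. P4HA1 (8.61-fold), KDM3A (8.97-fold) and BNIP3L (2.63-fold) rose, while ADM (3.32-fold) and NDRG1 (2.29-fold) fell. Called genes made up 54.1% of the 12013 tested (31% higher and 23.1% lower), so that 5 of 9 members called is near the background. Fold changes in this comparison followed the GC content of the transcript, and Spearman's rho was -0.716 over 11888 genes (a description across genes that are not independent of each other). The rho was -0.112 for A485 and -0.0168 for MS-275. Each member is therefore set beside the median of genes within 1 percentage point of its GC content.

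P4HA1 (chr10:73007217-73096974, minus strand) had 12103 and 12022 after pyruvate against 1293 and 1517 in Control6. The replicates lay close together and the groups far apart, with a log2 fold change of 3.11 (SE 0.080, limma adjusted p = 1.14e-10). The median of the 954 genes of like GC content (39.7% for P4HA1) was 1.88. KDM3A (chr2:86440647-86492716, plus strand) had 845 and 919 against 87.4 and 109. Its log2 fold change was 3.16 (SE 0.17, limma adjusted p = 1.44e-08), where genes of like GC content had a median of 1.06. When a trend along length and GC content of transcripts was removed from each library, P4HA1 stood at 1.76 and KDM3A at 2.17, and both were still called. That removal put the median over all genes at 0.20.

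BNIP3L (chr8:26383054-26505636, plus strand) had 2971 and 2914 against 1088 and 1147, a log2 fold change of 1.40 (SE 0.079, limma adjusted p = 2.09e-08). At 37.4% GC its neighbours had a median of 1.77, and after the trend was removed it stood at -0.079 and was not called. BNIP3 had 6282 and 6336 against 5019 and 5599, a difference of 0.25 that passed on adjusted p (0.00509, limma) but not on size. Genes of like GC content had a median of 1.62, and BNIP3 stood at -0.76 after the removal. Both mitophagy receptors were thus higher after pyruvate on the deposited scale, and both lay below genes of like GC content. The exons of BNIP3L overlap PNMA2 on the opposite strand, and BNIP3 has pseudogene copies, so reads could be shared.

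ADM had 4976 and 5047 after pyruvate against 15818 and 17530, a log2 fold change of -1.73 (SE 0.063, limma adjusted p = 9.16e-10). NDRG1 (chr8:133237175-133302022, minus strand) had 10129 and 10029 against 23714 and 22440, a log2 fold change of -1.19 (SE 0.054, limma adjusted p = 3.73e-09). Both have a GC content near 55% (55.4 and 54.9%), where the median log2 fold change of other genes was -0.74 for each. After the removal of the trend ADM stood at -0.57 and NDRG1 at -0.21, and neither was called. NDRG1 stood at -0.88 with equal library totals and at -0.81 with quantile normalization, under the fold minimum in both.

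VEGFA had 4977 and 4866 against 6560 and 6309, a difference of -0.39 beside -0.49 for genes of like GC content, and it stood at 0.17 with the trend removed, close to the median of 0.20. CA12 had 1456 and 1522 against 873 and 766, a difference of 0.86 (limma adjusted p = 8.54e-06), where genes of like GC content had -0.30. It stood at 0.97 with the trend removed and passed the fold minimum with equal library totals, at 1.17. ANKRD37 had 20.6 and 8.31 against 40.3 and 29.3, with few reads behind each value (log2 fold change -1.32, SE 0.63, limma adjusted p = 0.0732). The 905 genes of like GC content had a median of 0.12, and ANKRD37 stood at -1.12 with the trend removed. It passed with quantile normalization (-1.65, limma adjusted p = 0.0407) and without pyruvate replicate 1 (-1.92, 0.0427), and without pyruvate replicate 2 it stood at -0.71 (0.4).

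**Figure D4:**
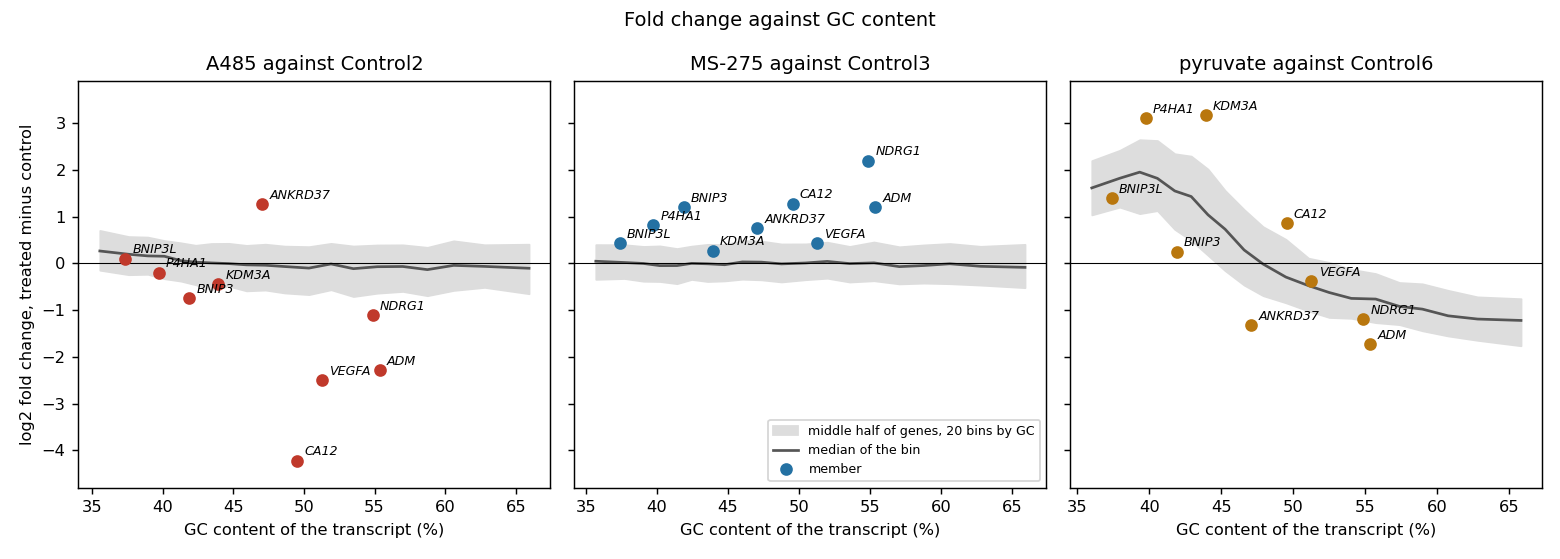
log2 fold change (treated minus control) against GC content of the canonical transcript in the 3 comparisons, with the median of 20 bins of genes (line), the range from the first to the third quartile (grey) and the members (points). The line slopes down most steeply in the pyruvate panel. There P4HA1, KDM3A and CA12 lie above it, VEGFA lies close to it, and BNIP3, BNIP3L, ADM, NDRG1 and ANKRD37 lie below.

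Whether the treatments acted differently was tested as the difference between their effects, each formed within its own experiment. Between A485 and MS-275, 3 of 9 members differed, namely VEGFA by -2.93 (adjusted p = 0.0284), ADM by -3.50 (0.00899) and CA12 by -5.50 (0.00579) on the log2 scale, by limma, where 3.81% of all genes were called. VEGFA no longer passed when any one of Control2 replicate 1 or 2, A485 replicate 1 or 2, or MS-275 replicate 2 was left out, with adjusted p of 0.0679 to 0.129. ADM did not pass without Control2 replicate 2 (0.0529) or A485 replicate 1 (0.0518). CA12 passed in each of these fits. NDRG1 differed by -3.31 without passing (95% interval -5.35 to -1.26, limma adjusted p = 0.0974).

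The pyruvate effect differed from the A485 effect for 6 members, where 54.3% of all genes were called. CA12 differed by 5.08, KDM3A by 3.61, P4HA1 by 3.31, VEGFA by 2.11 and BNIP3L by 1.29, all higher after pyruvate, and ANKRD37 by -2.58 (limma adjusted p = 0.0125). BNIP3L did not pass in 6 of the 8 fits that left out 1 library, nor with the length and GC trend removed, where its difference was 0.11. For ADM, which fell after both, the difference was 0.56 (95% interval 0.042 to 1.07, limma adjusted p = 0.0559). With the trend removed it was 1.68 and passed (adjusted p = 0.000455). NDRG1 showed a difference of -0.086 with a wide 95% interval of -1.30 to 1.13.

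The pyruvate effect differed from the MS-275 effect for 4 members, where 39% of all genes were called. KDM3A differed by 2.89 and P4HA1 by 2.29, higher after pyruvate. ADM differed by -2.94 and NDRG1 by -3.39, lower after pyruvate (limma adjusted p = 0.00139 and 0.0101). With the length and GC trend removed, P4HA1 differed by 0.89 and did not pass. BNIP3, at -0.96 and not called without that removal (limma adjusted p = 0.175), then differed by -1.99 and passed (0.00943), and it also passed without Control3 replicate 2, at -1.44 (0.0296).

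The regulators of the pathway were read from a list of 12 genes. HIF1A, which encodes HIF-1-alpha, had 13564 and 14782 after A485 against 23136 and 17378, and the difference of -0.50 did not pass (limma adjusted p = 0.166). EPAS1, which encodes HIF-2-alpha, fell 6.56-fold, with 3891 and 10190 against 26944 and 63371 (limma adjusted p = 0.0323). ARNT2, a partner subunit, fell 2.59-fold, with 1003 and 1252 against 2620 and 3220. CITED2, which competes with HIF for p300 and CBP, fell 3.52-fold, with 6437 and 4809 against 21148 and 18170. These 3 of 11 regulators listed were called lower and 0 higher, where 7.06% of all genes were called lower and 3.31% higher. VHL was the one with a higher value and an unadjusted p under 0.05, and edgeR and DESeq2 also called 0 higher and 3 lower. With either A485 library left out, fewer of all genes were called, and ARNT2 and EPAS1 did not pass. CITED2 did not pass without A485 replicate 2, and EPAS1 did not pass without Control2 replicate 2. EP300 and CREBBP, which encode p300 and CBP, differed by 0.22 (95% interval -0.43 to 0.87) and 0.065 (95% interval -0.45 to 0.57).

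After MS-275, limma called 0 of 12 regulators without a replicate block, and 3 had an unadjusted p under 0.05, as did 10.9% of all genes. With the replicate number as a block 3 were called higher, where 1230 of 15883 genes were. With the length and GC trend also removed 4 were higher and 1 lower, where 1966 of all genes were called, 1098 of them higher. The fit shared by 12 libraries called 1 higher, where 221 of all genes were. CITED2 had 20654 and 22523 against 10687 and 9400, and EPAS1 had 89302 and 71574 against 48237 and 32191, both apart from the controls. HIF3A was listed at 0 in both Control3 libraries and at 55.2 and 65.8 after MS-275. HIF1A overlapped, with 32721 and 7814 against 17467 and 3807, so that replicate 1 was high in both groups. EP300 (2887 and 504 against 3912 and 613) and CREBBP (1937 and 446 against 4309 and 784) showed the same split between replicate numbers.

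After pyruvate, 2 of 11 regulators rose and 2 fell, a share below the 54.1% of all genes called. In a fit shared by all 12 libraries neither of the risers passed. EP300 rose by 1.45 on the log2 scale, with 2480 and 2492 against 1004 and 826. HIF1A rose by 1.06, with 2089 and 1973 against 984 and 961, but stood at -0.55 with the length and GC trend removed. CITED2 fell 4.04-fold (5111 and 4712 against 19279 and 20372) and HIF1AN, which encodes the asparaginyl hydroxylase FIH that blunts HIF activity, fell 2.74-fold (2964 and 2934 against 8359 and 7805). CITED2 and HIF1AN were called lower under every alternative tried. VHL, ARNT, ARNT2 and EPAS1 passed on adjusted p with differences between -0.71 and -0.20, CREBBP did so at 0.90, and EGLN1 and EGLN2 did not pass. With the length and GC trend removed CREBBP stood at 1.51 and EGLN2 at 1.73, and both were called higher.

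**Figure D5:**
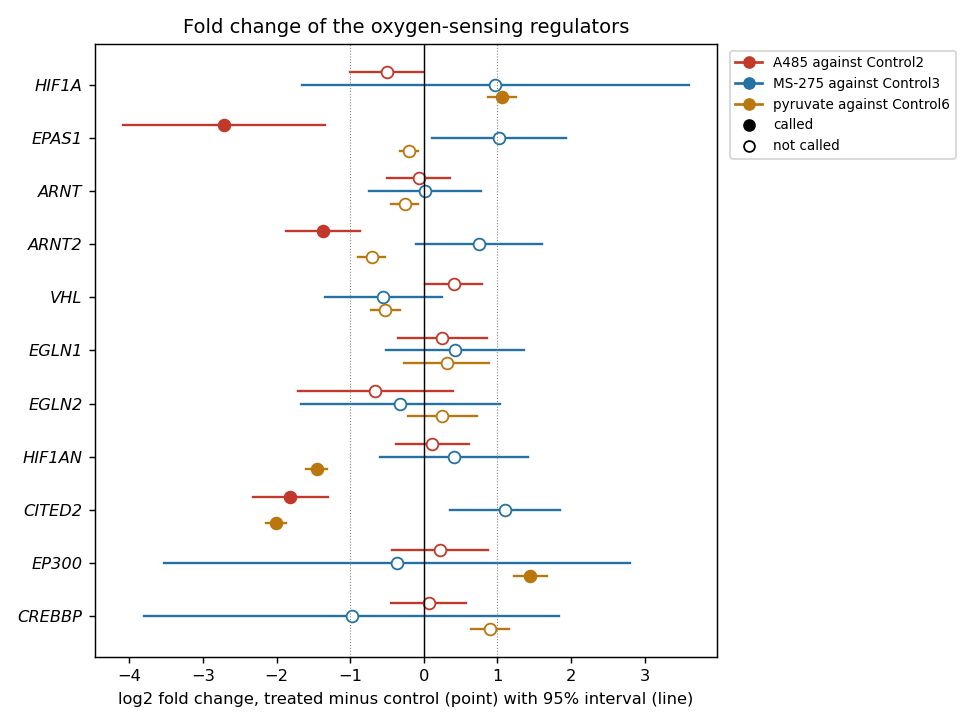
log2 fold change (treated minus control) of 11 oxygen-sensing regulators in the 3 comparisons, with points for the limma estimate and lines for its 95% interval, filled where the gene was called (HIF3A, listed only in the MS-275 experiment and at 0 in its controls, is left out). A485 points for EPAS1, ARNT2 and CITED2 lie below -1, and CITED2 lies lowest after pyruvate at -2.01.

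A list of 42 other known hypoxia targets was read in the same way. After A485, 1 of 39 tested rose and 10 fell, where 3.31% of all genes were called higher and 7.06% lower. The median log2 fold change of the list was -0.43. The largest falls were in STC2 (-6.66, 306 and 525 against 36397 and 45361) and STC1 (-3.89), both stanniocalcins, and in IGFBP3 (-4.34, 1908 and 1187 against 42773 and 21744), a binding protein of insulin-like growth factors. INSIG2, which holds back sterol synthesis, was the one that rose, at 1.12. With either A485 library left out, fewer of the list and fewer of all genes were called, and STC2 and IGFBP3 passed in both fits. INSIG2 did not pass when A485 replicate 1, A485 replicate 2 or Control2 replicate 1 was left out.

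After MS-275, limma called 0 of 40 and 13 had an unadjusted p under 0.05, as did 10.9% of all genes. Of the 40, 34 were higher within both replicate numbers (38.6% of all genes) and 17 by more than 1 in both (6.81%), and the median log2 fold change was 0.93. IGFBP3 had 94131 and 281590 against 7887 and 12969, SLC2A1, the glucose transporter GLUT1, 31892 and 49854 against 5843 and 8115, and STC1 6404 and 7971 against 1290 and 2153. All were apart from their controls, with limma adjusted p of 0.181, 0.174 and 0.221. IGFBP3 and STC1 had both fallen after A485. In a fit shared by all 12 libraries limma called 9 of the list higher, where it called 221 of all genes higher.

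After pyruvate, 5 of 39 rose and 16 fell, and the median was -0.38. Of all genes 31% were called higher and 23.1% lower. The share of the list that rose was thus below that of all genes, and the share that fell was above it. The counts were 7 and 11 with equal library totals, where 4402 of the 6143 genes called were higher. With quantile normalization they were 6 and 10, where 3143 of 6371 were higher. PDK1, which restrains entry of pyruvate into the mitochondrial cycle, rose by 2.68 (2993 and 2874 against 409 and 514), WSB1 by 1.90 and GBE1 by 1.53. With the length and GC trend removed these stood at 0.84, 0.38 and 0.35 and were not called. ANGPTL4 fell by 2.56 and PFKFB4 by 2.38 on the log2 scale. They stood at -1.09 and -1.43 with the trend removed and were still called. The counts for the list then became 3 higher and 10 lower, where 3572 of all genes were called, 2433 of them higher.

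The members did not vary together as 1 group across the 12 libraries. With each library taken relative to its own controls, BNIP3 followed the mean of the other members most closely (Pearson r = 0.919), then CA12 (0.869) and VEGFA (0.820). NDRG1 (0.559), ADM (0.544), P4HA1 (0.354), BNIP3L (0.272) and KDM3A (0.253) followed it less, and ANKRD37 ran against it (-0.444). Over 10940 genes, those most like the mean of the members were RPL23AP7 (0.975), NFIL3 (0.975), PIR (0.974), STC1 (0.972) and SLC31A1 (0.970). These values describe 12 libraries that share treatment groups and size factors, and they carry no test.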

How the data were processed

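Bulk RNA sequencing of 12 IMR90 libraries was used, and the 8 mouse muscle libraries were not used here. The authors trimmed reads with Trim Galore (0.6.10), aligned them to hg38 with HISAT2 (2.2.1), handled alignments with SAMtools (1.7), counted reads per gene with featureCounts (2.0.6) and normalized with DESeq2 (1.34.0). Each deposited value is thus a signal in which a read count was scaled by the size factor of its library. Annotation and strand setting of the counting are not given in the sources used here. All values were whole multiples of the value estimated for 1 read in each library (tolerance 0.02 reads). A separate check did not accept the recovered reads of every library in the MS-275 and pyruvate experiments.

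Libraries were grouped by title. Values were taken as log2(value + 1), which understates the change of genes with low values, and tests covered genes whose mean over the 4 libraries reached 10, by fits with limma (3.58.1) in R (4.3.3), with an intensity trend and no covariate. Benjamini-Hochberg adjustment ran over all genes tested, which were 16084, 15883 and 12013. Differences between effects were limma contrasts over 8 libraries. An exact permutation test of 2 against 2 cannot go below p = 0.333. edgeR (4.0.16) and DESeq2 (1.42.0) on recovered reads were alternatives for A485. The fits were tested on simulated data.

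Members and lists were chosen with earlier results of these data known. The text names all members, all regulators, and of the other targets per comparison the 3 largest called rises and falls whose higher group averaged 100 or more, or with none called the 3 with the largest change whose groups did not overlap. It also names the 5 genes most like the members' mean. A gene that this rule names after pyruvate is not reported here. Positions, lengths and GC content were read from GENCODE for hg38 and matched 98.3% of genes, and promoter windows came from RefSeq. Other steps used Python (3.11.15), numpy (2.4.6), pandas (2.3.3) and matplotlib (3.10.9).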

Additional observations from a re-analysis of the deposited data

How the results depend on the processing

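Of the values for single members, 824 kept direction and side of the threshold under the alternatives, 38 came to pass, 23 no longer passed and 23 changed sign, and of the counts 225 stayed within 1.5 times and 44 did not. The cause was not tested for any of these. With 2 libraries per group and few reads for ANKRD37, changes below about 2-fold were often within the intervals.

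After A485, 1 member (ANKRD37) was called higher with the length and GC trend removed, with or without the replicate block, DESeq2 called 4 lower (with NDRG1), and leaving out 1 library gave 2 to 5 lower. Leaving out 1 library gave 0 to 1 member called higher after MS-275 (NDRG1, without Control3 replicate 2), and the fit shared by 12 libraries gave 1 (ADM). With no fold minimum 5 members were higher after pyruvate. Members lower after pyruvate numbered 1 with equal library totals, 1 in the shared fit, and 0 with the trend removed, with or without the block. Effects differing between A485 and MS-275 numbered 1 to 3 when 1 library was left out, those between pyruvate and MS-275 4 to 7 (7 without Control3 replicate 2).

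No label says what the replicate numbers share, and the deviations of same-numbered libraries correlated at 0.316 (A485), 0.728 (MS-275) and 0.0020 (pyruvate), over 2 pairs each. With the replicate number as a block, 4 members were called higher after MS-275 (ADM, BNIP3, NDRG1 and CA12), also with the length and GC trend removed, as were 18 of the 40 other targets, and 6 effects differed between A485 and MS-275. The block moved the count of all genes called after MS-275 from 0 to 2183, of which 1230 were higher. With the trend also removed it was 1966, of which 1098 were higher. All genes were not counted for the blocked difference between effects.

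Signs changed after A485 for P4HA1 with quantile normalization (0.25) or equal totals (0.19), and for BNIP3L with the trend removed (-0.19, also with the block) or without Control2 replicate 1 (-0.43). After MS-275, VEGFA ranged from -0.072 (without Control3 replicate 1) to 0.93 with 1 library left out. After pyruvate with the trend removed, alone or with the block, BNIP3 was -0.76, BNIP3L -0.079 and VEGFA 0.17. The A485 minus MS-275 difference was 0.068 (quantile), 0.21 (equal totals) and -0.86 to 0.21 with 1 library left out for BNIP3L, and -0.024 to 1.06 for ANKRD37. The pyruvate minus A485 difference of NDRG1 was 0.17 (quantile), 0.88 (trend removed) and -0.81 to 0.64 with 1 library left out. The pyruvate minus MS-275 difference was 0.038 for CA12 with equal totals and -0.55 for BNIP3L with the trend removed. None of these sign changes came with a call.

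The all-gene median became 0.40, -0.15 and 0.30 with equal totals (A485, MS-275, pyruvate) and 0.12, -0.032 and -0.17 with quantile normalization. All genes called after A485 numbered 1667 (532 higher), 2587 with equal totals (1672 higher), 840 without the intensity trend, 229 without A485 replicate 1 and 301 without A485 replicate 2. After MS-275 they numbered 488 in the shared fit and 33 to 444 with 1 library left out. After pyruvate they numbered 6503 (3726 higher), 6143 with equal totals (4402 higher), 6371 with quantile normalization (3143 higher) and 3572 with the trend removed. For MS-275 and for pyruvate edgeR and DESeq2 were not run, since a separate check of the recovered reads did not accept every one of these libraries.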
